A study of Oryza sativa with 8 samples.

Results

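The genes described here encode the core histones, the proteins that drive and license the cell cycle, and the ribosomal proteins of rice. They were measured as 77 probe sets of 56 genes, out of 17905 genes with a probe set of their own and 57194 probe sets tested on the Affymetrix rice array. A probe set was included when the platform gene table gave it a single gene named as a core histone, a cyclin of type A, B or D, a cyclin-dependent kinase of type A or B, PCNA, one of MCM2 to MCM7, or a nuclear-encoded ribosomal protein. This gave 5 core histone probe sets of 5 genes, 31 cell cycle probe sets of 26 genes and 41 ribosomal protein probe sets of 25 genes. All 5 histone genes encode histone H2B, since no gene of the table carried an H2A, H3 or H4 name. A further 15 genes with a matching name had no probe set of their own in the table, among them CDKB1-1, CYCA3-1, CYCB1-5, CYCD2-1, H2B.2, H2B.3, H2B.4 and H2B.9. Of the 77 probe sets, 20 carry the array's marks for probes that can match several transcripts (1 histone, 4 cell cycle and 15 ribosomal protein probe sets), and their values cannot be assigned to 1 gene with certainty.

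Leaves of the japonica cultivar Zhonghua11 were profiled in 4 groups of 2 arrays. These were OsGRAS23 overexpression plants under drought, OsGRAS23 overexpression plants under normal conditions (together OsGRAS23-OE), wild-type (WT) plants under drought and WT plants under normal conditions. All seedlings were 21 days old and grown in culture solution, and normal leaves were taken before the treatment. Drought leaves came from seedlings dried on filter paper up to the point of leaf rolling in WT, so that drought cannot be told apart from handling or elapsed time. Each array held RNA pooled from 20 seedlings and was labelled a biological replicate, and p-values measure only the spread between these pools. The promoter of the transgene and the number of independent lines behind OsGRAS23-OE were not given in the sources used here.

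Histone H2B is 1 of the core proteins around which DNA is wrapped, and most histone transcripts are made while DNA is being copied. Cyclins activate cyclin-dependent kinases, with D cyclins acting at entry into the cycle and A and B cyclins during DNA synthesis and mitosis, while the MCM proteins form the helicase that opens replication origins and PCNA is the clamp that holds the polymerase on DNA. Ribosomal proteins build the large and small subunits of the ribosome and are needed wherever cells grow, dividing or not. In grasses, cells divide mainly at the base of young leaves and in the shoot apex, and most cells of an expanded blade no longer divide.

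Values were log2 expression per probe set, a difference of 1 standing for a 2-fold change, and calls required both a 2-fold change or more and a limma p, adjusted over all probe sets, below 0.05. Array medians lay between 4.80 and 4.90 and replicate arrays correlated at 0.987 to 0.991 across probe sets. Of 10 leaf marker probe sets 9 averaged above 5 on this scale. The brightest of the 4 probe sets of OsrbcS, a small subunit of Rubisco, averaged 13.79 in OsGRAS23-OE drought, 14.07 in OsGRAS23-OE normal, 14.04 in WT drought and 14.06 in WT normal leaves. The mean of 18 spike-in probe sets, which measure RNA added in the laboratory, was 11.16 and 11.23 on the OsGRAS23-OE drought arrays, 10.54 and 10.69 on the OsGRAS23-OE normal arrays, 11.04 and 11.75 on the WT drought arrays and 10.43 and 9.60 on the WT normal arrays. It was thus higher on every drought array than on every normal array. The 3′ minus 5′ difference of the GAPDH control was -0.94 on the array of WT drought replicate 2 and at least -0.29 on the other 7. That of the actin control was 5.83 and 5.55 on the OsGRAS23-OE drought arrays, 5.92 and 6.08 on the OsGRAS23-OE normal arrays, 5.50 and 5.44 on the WT drought arrays and 6.25 and 6.43 on the WT normal arrays, lower on every drought array than on every normal array. The part of these array properties in the results below was not tested. An exact permutation test of 2 arrays against 2 cannot give a two-sided p below 0.333, so every call rests on the spread shared over groups and probe sets, and the number of arrays limits the precision.

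The 3 classes differed in how far they lay below their normal level after drought, with the histones and cell cycle genes farther below than the ribosomal proteins in both lines. In OsGRAS23-OE leaves 2 of the 77 probe sets were called lower after drought, both of D cyclins, which is 2.6% beside 0.836% of all probe sets and 1.65% of those with a mean above 5. None was called higher, beside 1.6% of all. The medians were -0.77 for the histones, -0.73 for the cell cycle genes and -0.27 for the ribosomal proteins, beside 0.02 for all probe sets and -0.07 for those with a mean log2 value above 5. Below 0 were 4 of 5 histone, 30 of 31 cell cycle and 38 of 41 ribosomal protein probe sets. In bulk leaf RNA, fewer cells of a type and less RNA per cell cannot be told apart.

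In WT leaves 3 of 5 histone probe sets and 12 of 31 cell cycle probe sets were called lower, and 0 of 41 ribosomal protein probe sets. The 15 calls were 19.5% of the 77 probe sets, beside 5.51% of all 57194 probe sets called lower in the same comparison and 10.3% of the 27376 with a mean log2 value above 5, where 67 of the 77 lay. None of the 77 was called higher by limma, beside 2.17% of all probe sets, and none had an increase at an unadjusted p under 0.05. The median WT change was -1.42 for the histones, -0.80 for the cell cycle genes and -0.40 for the ribosomal proteins, beside 0.08 for all probe sets and -0.17 for those above 5. Below 0 were 5 of 5, 31 of 31 and 35 of 41. At an unadjusted p under 0.05 limma gave 3 histone, 15 cell cycle and 10 ribosomal protein probe sets in OsGRAS23-OE leaves, and 4, 17 and 20 in WT leaves. Over all 57194 probe sets, in either direction, the counts were 9708 in OsGRAS23-OE and 20542 in WT leaves. Of the 27376 with a mean above 5 they were 8109 and 14563, and in both lines the ribosomal protein share lay below this. The cell cycle share was close to that background in WT leaves, with 17 of 31, and higher than it in OsGRAS23-OE leaves, with 15 of 31.

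**Figure D1:**
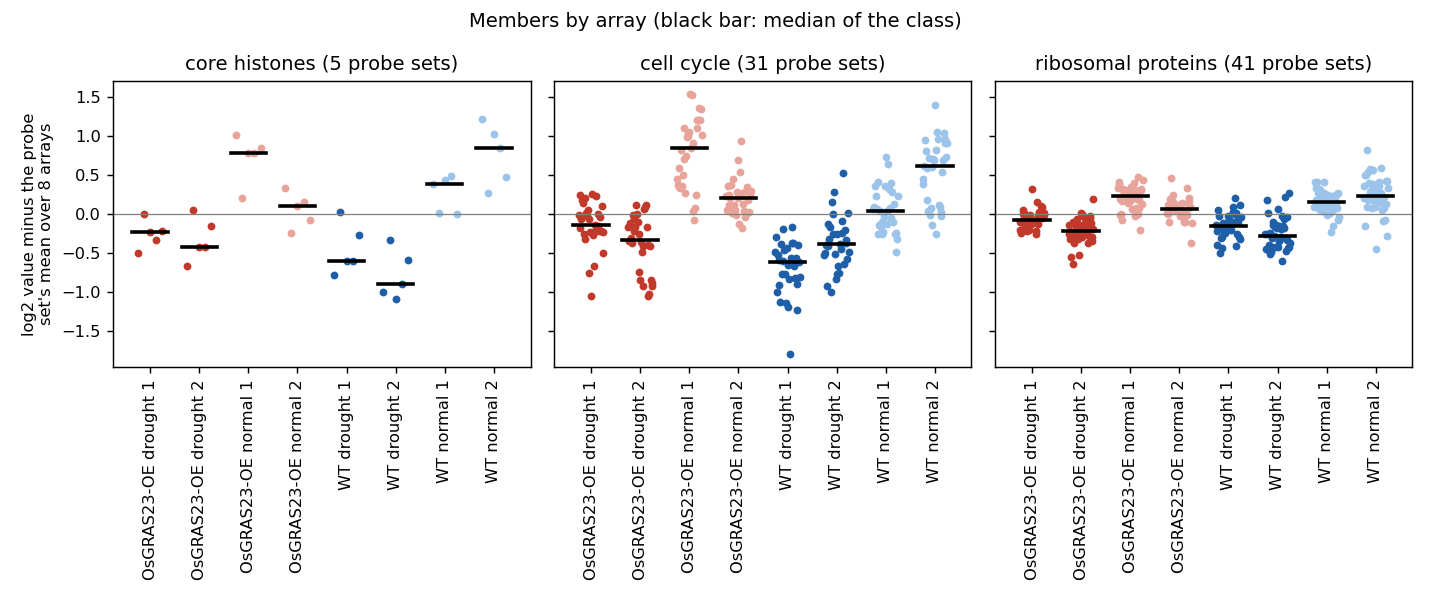
Each point is 1 probe set on 1 array, given as its log2 value minus that probe set's mean over the 8 arrays, and black bars are class medians, for 5 core histone, 31 cell cycle and 41 ribosomal protein probe sets. The cell cycle median was -0.15 and -0.33 on the OsGRAS23-OE drought arrays, 0.85 and 0.21 on the OsGRAS23-OE normal arrays, -0.62 and -0.39 on the WT drought arrays and 0.04 and 0.61 on the WT normal arrays.

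The classes were also compared array by array. Relative to their own means over the 8 arrays, the histone probe sets had medians of -0.24 and -0.43 on the OsGRAS23-OE drought arrays, 0.79 and 0.10 on the OsGRAS23-OE normal arrays, -0.60 and -0.90 on the WT drought arrays and 0.39 and 0.84 on the WT normal arrays. The ribosomal proteins had -0.07 and -0.22 on the OsGRAS23-OE drought arrays, 0.23 and 0.06 on the OsGRAS23-OE normal arrays, -0.15 and -0.28 on the WT drought arrays and 0.16 and 0.23 on the WT normal arrays. In all 3 classes every drought array lay below every normal array of its own line. The replicates of the normal groups lay far apart for histones and cell cycle genes, with OsGRAS23-OE normal replicate 1 and WT normal replicate 2 the higher of their pairs. Of the 31 cell cycle probe sets, 20 had their highest value on the array of OsGRAS23-OE normal replicate 1 and 8 on that of WT normal replicate 2. Such counts, here and below, were not made over all probe sets and cannot be taken as particular to these genes.

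**Figure D2:**
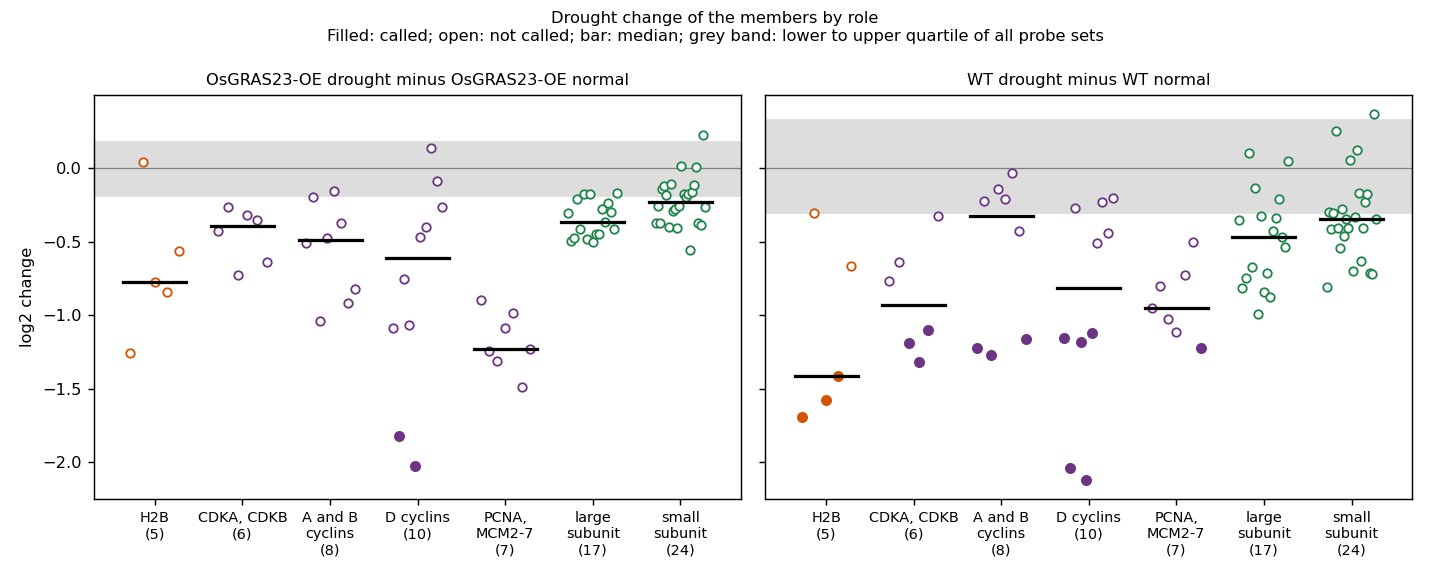
Log2 change with drought in OsGRAS23-OE leaves (left) and WT leaves (right) by role of the gene, with the number of probe sets in brackets; filled points were called, open points were not, black bars are medians and the grey band runs from the lower to the upper quartile of all 57194 probe sets. The 2 filled points on the left are CYCD3-1 and CYCD4-2, and on the right 3 H2B, 3 kinase, 3 A or B cyclin, 5 D cyclin and 1 PCNA probe set are filled.

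Among the histones, H2B.10 (Os.19803.5.S1_at) had the lowest change in both lines. Its log2 values were 8.26 and 8.09 in OsGRAS23-OE drought leaves and 9.77 and 9.09 in OsGRAS23-OE normal leaves. In WT leaves they were 7.97 and 7.75 under drought and 9.14 and 9.97 under normal conditions. In neither line did the drought and normal arrays overlap, and in both the normal pair was the more widely spread. The OsGRAS23-OE change was -1.26 (standard error 0.30), which was not called (limma adjusted p = 0.0569), and the WT change was -1.69 (standard error 0.30, adjusted p = 0.0077), a 3.24-fold lower level.

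H2B.5 (Os.47037.1.S1_at) followed the same order of groups. It measured 10.43 and 10.24 in OsGRAS23-OE drought leaves, 11.45 and 10.76 in OsGRAS23-OE normal leaves, 10.06 and 9.58 in WT drought leaves and 11.10 and 11.69 in WT normal leaves. It had a change of -0.77 in OsGRAS23-OE leaves (adjusted p = 0.202) and fell by 1.57 in WT leaves (adjusted p = 0.00861). H2B.6 (Os.19803.3.S1_at) measured 10.34 and 10.24 in OsGRAS23-OE drought, 11.45 and 10.82 in OsGRAS23-OE normal, 10.06 and 9.77 in WT drought and 11.16 and 11.51 in WT normal leaves. Its change in OsGRAS23-OE leaves was -0.84 (adjusted p = 0.0934), and it fell by 1.42 in WT leaves (adjusted p = 0.0062). For both genes the 4 drought arrays lay below the 4 normal arrays, and the OsGRAS23-OE drought arrays lay above the WT drought arrays.

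The other pair of H2B genes was not called in either line. H2B.7 (OsAffx.10929.1.S1_x_at), whose probes can match several transcripts, had changes of -0.57 in OsGRAS23-OE and -0.66 in WT leaves. H2B.11 (Os.19784.1.S1_at) had 0.05 in OsGRAS23-OE and -0.30 in WT leaves, and its drought and normal arrays overlapped in both lines. All 5 genes lie on chromosome 1 of the RefSeq assembly ASM3414082v1. H2B.10, H2B.7, H2B.6 and H2B.5 are near neighbours there, with 5, 2 and 1 other genes between them, while 3506 genes separate H2B.5 from H2B.11. H2B.10 and H2B.6 are read by probe sets of 1 sequence cluster of the array, so these histone values may not be independent of each other. Without WT normal replicate 2, or without WT drought replicate 2, limma called 0 of the 3 genes, while their changes stayed beyond 2-fold. For H2B.10, H2B.5 and H2B.6 they were -1.28, -1.28 and -1.24 without WT normal replicate 2, and -1.59, -1.33 and -1.27 without WT drought replicate 2. All 5 histone probe sets had their lowest value on the array of WT drought replicate 2, the array whose GAPDH control stood apart.

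The kinases were represented by CDKA-1 and CDKA-2, the plant form that acts at both main transitions of the cycle, and CDKB2-1, a plant-specific kinase of mitosis. CDKA-2 had changes of -0.73 (Os.3428.1.S1_x_at), -0.32 (Os.3428.2.S1_at) and -0.35 (Os.51694.1.S1_at) on its 3 probe sets in OsGRAS23-OE leaves, none called. In WT leaves it fell on all 3, by 1.19, 1.32 and 1.10, with adjusted p of 0.00891, 0.00965 and 0.0292. On Os.3428.2.S1_at its values were 5.57 and 5.52 in OsGRAS23-OE drought leaves, 5.98 and 5.75 in OsGRAS23-OE normal leaves, 5.11 and 4.71 in WT drought leaves and 5.86 and 6.59 in WT normal leaves. The drought arrays lay below the normal arrays in each line, by little in OsGRAS23-OE. CDKA-1 had OsGRAS23-OE changes of -0.43 and -0.26 on its probe sets and WT changes of -0.77 and -0.64. Its brighter probe set (Os.11723.2.S1_s_at) had an adjusted p of 0.0207 in WT, with a change under 2-fold. CDKB2-1 had -0.64 in OsGRAS23-OE and -0.32 in WT leaves, neither called.

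The A and B cyclins divided into genes that were called in WT leaves and genes whose WT change was near 0. CYCA3-2 measured 5.74 and 5.84 in OsGRAS23-OE drought leaves, 7.16 and 6.50 in OsGRAS23-OE normal leaves, 5.29 and 5.06 in WT drought leaves and 6.10 and 6.78 in WT normal leaves. It had a change of -1.04 in OsGRAS23-OE leaves (adjusted p = 0.0765) and fell by 1.27 in WT leaves (adjusted p = 0.0153). CYCA1-4 measured 5.51 and 5.76 in OsGRAS23-OE drought leaves, 6.13 and 6.14 in OsGRAS23-OE normal leaves, 4.64 and 5.45 in WT drought leaves and 6.18 and 6.36 in WT normal leaves. Its change was -0.51 in OsGRAS23-OE leaves, and it fell by 1.22 in WT leaves (adjusted p = 0.0129). For neither gene did the drought and normal arrays of a line overlap.

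The probe sets of CYCB2-2, a cyclin of the mitotic B type, disagreed in call. Os.2693.2.S1_at fell by 1.16 in WT leaves (adjusted p = 0.0397), with values of 6.72 and 6.53 in OsGRAS23-OE drought, 7.82 and 7.07 in OsGRAS23-OE normal, 5.65 and 6.27 in WT drought and 6.75 and 7.49 in WT normal leaves. Os.2693.1.S1_x_at, which can match several transcripts, had a change of -0.92 in OsGRAS23-OE leaves and of -0.43 in WT leaves, both with a standard error of 0.45 and not called. The mitotic cyclins CYCB1-1 and CYCB2-1 had OsGRAS23-OE changes of -0.47 and -0.37, and WT changes of -0.14 (95% interval -0.76 to 0.49) and -0.03 (-0.58 to 0.52). CYCA2-1 and CYCB1-3 had -0.20 and -0.15 in OsGRAS23-OE leaves and -0.22 and -0.21 in WT leaves, with CYCB1-3 dim at a mean of 3.19. Of the 8 probe sets of this group, limma called 0 in OsGRAS23-OE leaves, where 2 had an unadjusted p under 0.05, and 3 lower in WT leaves. In OsGRAS23-OE leaves 8109 of the 27376 probe sets with a mean above 5 had an unadjusted p that low.

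The D cyclins held the largest changes of all 77 probe sets in both lines. CYCD4-2 (Os.47947.1.A1_at) had log2 values of 4.70 and 4.45 in OsGRAS23-OE drought leaves and 6.90 and 6.30 in OsGRAS23-OE normal leaves, and of 3.58 and 4.62 in WT drought leaves and 6.01 and 6.43 in WT normal leaves. The gap between the drought and normal pairs was wider than the spread of either pair in each line. It fell by 2.03 in OsGRAS23-OE leaves (standard error 0.34, adjusted p = 0.0162) and by 2.12 in WT leaves (standard error 0.34, adjusted p = 0.00538). CYCD3-1 (Os.14184.1.S1_at) measured 4.90 and 5.11 in OsGRAS23-OE drought, 7.01 and 6.64 in OsGRAS23-OE normal, 4.75 and 5.19 in WT drought and 6.68 and 7.35 in WT normal leaves. It fell by 1.82 in OsGRAS23-OE leaves (standard error 0.25, adjusted p = 0.00819) and by 2.04 in WT leaves (standard error 0.25, adjusted p = 0.00223), 3.54-fold and 4.12-fold lower levels.

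CYCD3-1 and CYCD4-2 were the only members called in OsGRAS23-OE leaves. CYCD2-2, CYCD4-1 and CYCD5-1 had OsGRAS23-OE changes of -1.09, -1.07 and -0.47, none of them called. In WT leaves they were called at -1.16, -1.18 and -1.12, with adjusted p of 0.0277, 0.0159 and 0.0117. CYCD4-1 measured 6.43 and 6.21 in OsGRAS23-OE drought leaves, 7.55 and 7.23 in OsGRAS23-OE normal leaves, 5.86 and 6.03 in WT drought leaves and 6.73 and 7.52 in WT normal leaves, with no overlap between drought and normal arrays of a line. The remaining 5 D cyclin probe sets, of CYCD3-2, CYCD5-2, CYCD5-3 and CYCD6-1, had OsGRAS23-OE changes of -0.76 to 0.14 and WT changes of -0.51 to -0.20, none called. CYCD3-2 had the most uneven pair of the class, with 6.93 on the array of OsGRAS23-OE normal replicate 1 and 5.26 on that of replicate 2.

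**Figure D3:**
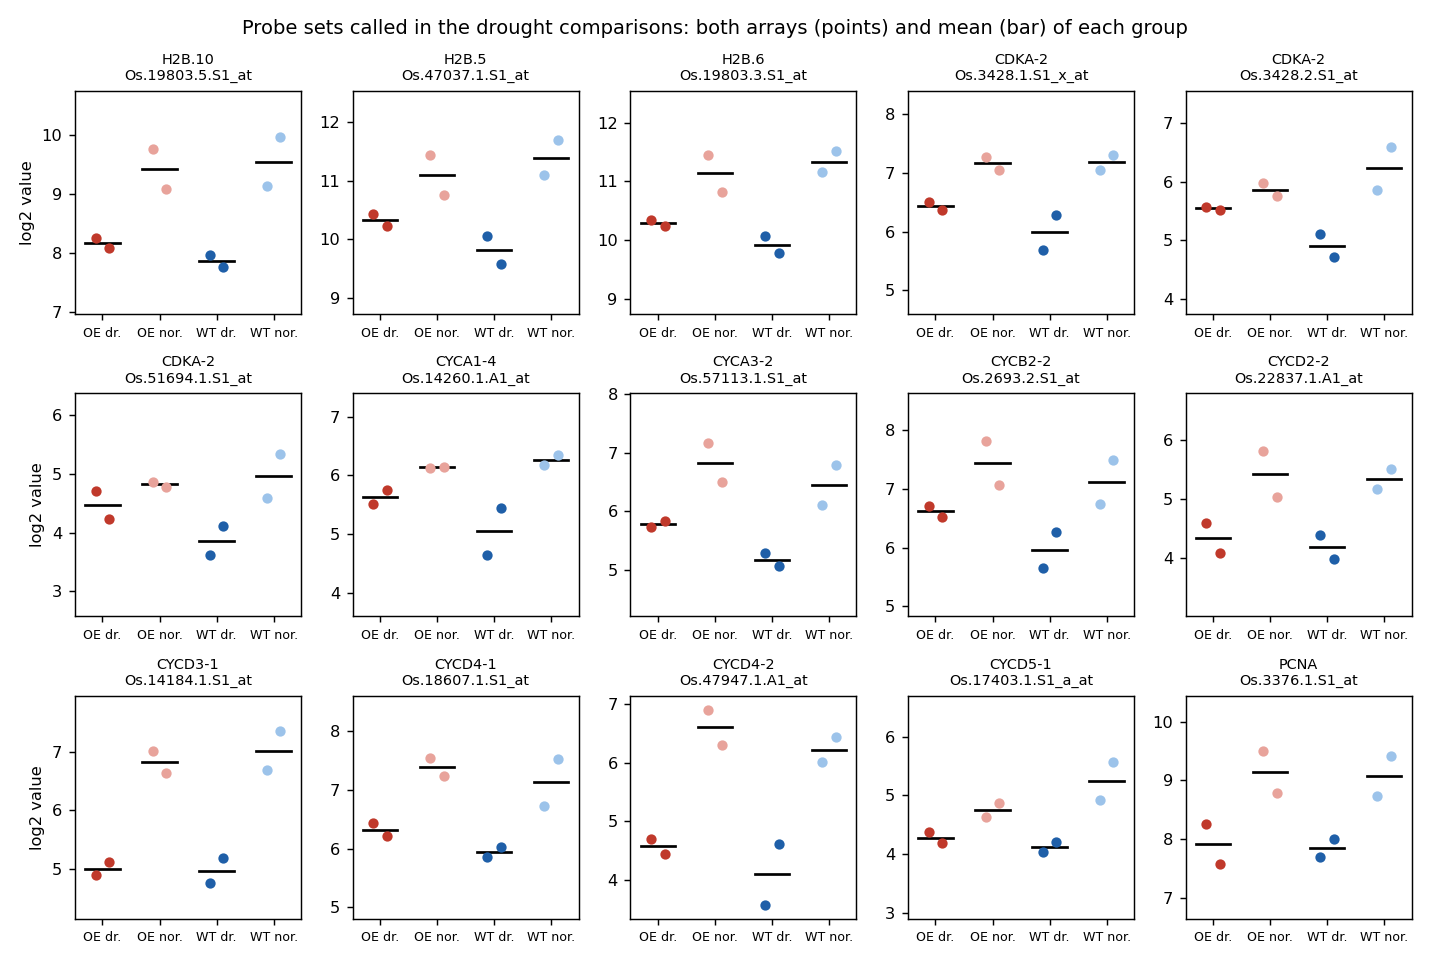
Log2 values of the 15 probe sets called lower after drought in WT leaves, both arrays of each group as points and their mean as a bar (OE: OsGRAS23-OE; dr.: drought; nor.: normal), with every panel spanning the same log2 range. Drought points lie below normal points of the same line in every panel, and CYCD3-1 and CYCD4-2 show nearly the same distance in both lines. The panels were chosen by their WT call, which largely sets the WT separation in advance, and the share without overlap over all probe sets was not counted.

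Calls in the cell cycle class depended on single arrays. In OsGRAS23-OE leaves both calls were lost without OsGRAS23-OE normal replicate 1, when CYCD3-1 had a change of -1.64 and CYCD4-2 of -1.73. Without OsGRAS23-OE drought replicate 2, CYCD3-1 was called and CYCD4-2 was not, and without either WT normal array 4 cell cycle probe sets were called, with CYCA3-2 and CYCD4-1 added. In WT leaves 2 of the 12 calls were made when WT normal replicate 2 was left out, 3 when WT drought replicate 1 was and 4 when WT drought replicate 2 was. CYCD3-1 and CYCD4-2 were kept in each of these 3 fits.

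Among the replication proteins, PCNA (Os.3376.1.S1_at) measured 8.26 and 7.58 in OsGRAS23-OE drought leaves, 9.51 and 8.79 in OsGRAS23-OE normal leaves, 7.69 and 8.00 in WT drought leaves and 8.73 and 9.41 in WT normal leaves. The drought arrays lay below the normal arrays in each line. Its change was -1.23 in OsGRAS23-OE leaves (standard error 0.33, adjusted p = 0.0838) and -1.22 in WT leaves (standard error 0.33, adjusted p = 0.0341), so it was called in WT and not in OsGRAS23-OE leaves. With quantile normalization the WT call was lost. The difference between the lines was -0.01 with a 95% interval of -1.05 to 1.04.

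None of the 6 helicase genes MCM2 to MCM7 was called in either line, although MCM2 was called in WT leaves with median centring. Their changes ran from -1.49 (MCM7) to -0.90 (MCM2) in OsGRAS23-OE leaves and from -1.11 (MCM5) to -0.50 (MCM7) in WT leaves, all below 0. Together with PCNA they had a median of -1.23 in OsGRAS23-OE leaves, the lowest of the role groups there. An unadjusted p under 0.05 was reached by 6 of 7, beside 8109 of the 27376 probe sets with a mean above 5. In WT leaves the median was -0.95, with 3 of 7 beside 14563 of the 27376, a share no higher than that background. The replicates of the normal groups lay far apart. On the OsGRAS23-OE normal arrays replicate 1 exceeded replicate 2 by 0.81 to 1.19 for each of the 6 MCM genes, and on the WT normal arrays replicate 2 exceeded replicate 1 by 0.56 to 1.45. The drought pairs differed less, with a median gap of 0.62 in OsGRAS23-OE and 0.44 in WT leaves. MCM7, for example, measured 5.19 and 4.80 in OsGRAS23-OE drought leaves, 7.04 and 5.93 in OsGRAS23-OE normal leaves, 5.07 and 5.70 in WT drought leaves and 5.36 and 6.41 in WT normal leaves. Its arrays overlapped between conditions in WT and not in OsGRAS23-OE leaves. Without WT normal replicate 1, MCM2, MCM4 and MCM5 were called in WT leaves.

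**Figure D4:**
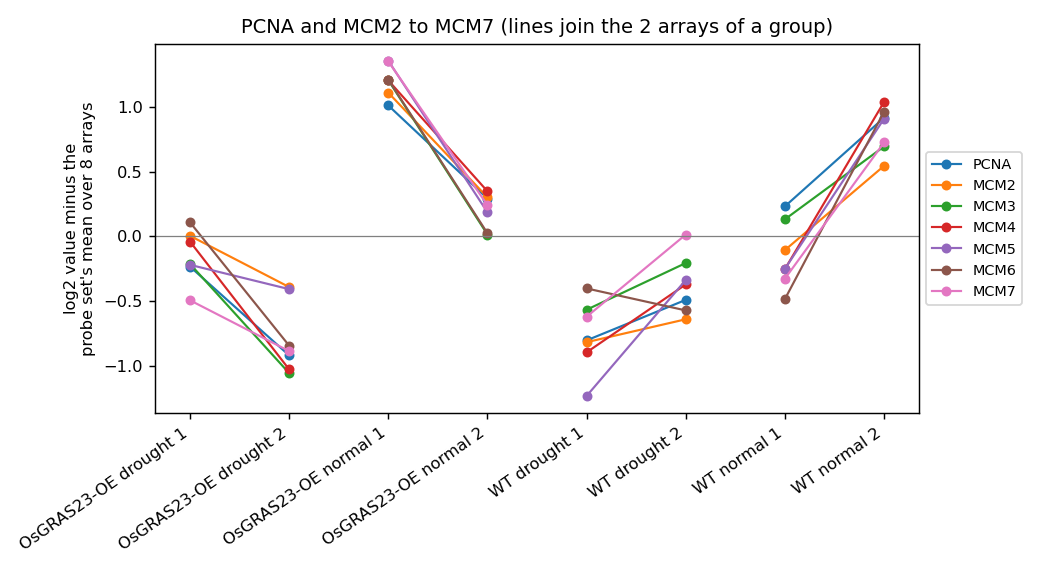
PCNA and MCM2 to MCM7 on each array, as the log2 value minus the gene's mean over the 8 arrays, with lines joining the 2 arrays of a group. All 6 MCM genes are highest on the array of OsGRAS23-OE normal replicate 1, and 5 of the 6 are higher in replicate 2 than in replicate 1 of WT drought leaves.

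The ribosomal proteins had small changes, most of them below 0. In WT leaves 12 of the 41 probe sets had an adjusted p under 0.05 without regard to fold, all of them lower, which is 29.3% beside 12% of all probe sets and 22.3% of those with a mean log2 value above 5, where 38 of the 41 lay. Among the 24 with a mean above 11 the share was 20.8%, beside 18.4% of all probe sets that bright, so at matched brightness it was close to the background. None of the 41 reached 2-fold. The change of the 41 ranged from -0.56 (rps14, Os.5499.2.S1_at) to 0.23 (rps20, Os.7.2.S2_at) in OsGRAS23-OE leaves and from -0.99 (RPL27, Os.51456.1.S1_at) to 0.37 (rps20, Os.7.2.S2_at) in WT leaves. The rps20 probe set at the upper end was dim (mean 3.51), and the other, brighter rps20 probe sets were below 0 in both lines. None of the 41 had an adjusted p under 0.05 in OsGRAS23-OE leaves, where the smallest was 0.0935. Precision was higher than for the cell cycle genes, the median standard error of the change being 0.17 beside 0.28.

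At an adjusted p under 0.05 in WT leaves, 8 of 17 probe sets of the large subunit (47.1%) and 4 of 24 of the small subunit (16.7%) were lower, and the share of the small subunit lay below the 22.3% of all probe sets with a mean above 5. The difference between the subunits was not tested. Genes were placed by name alone, so both groups may mix proteins of the cytosolic ribosome with nuclear-encoded ones of organelle ribosomes. RPL27 and RPL18 also carry the names CL27 and CL18 and may belong to the chloroplast ribosome. RPL39C (Os.12267.2.S1_s_at), a small protein of the large subunit, measured 11.26 and 11.08 in OsGRAS23-OE drought leaves, 11.63 and 11.61 in OsGRAS23-OE normal leaves, 10.93 and 10.89 in WT drought leaves and 11.62 and 11.95 in WT normal leaves. Drought and normal arrays did not overlap in either line, and the change was -0.45 in OsGRAS23-OE leaves (adjusted p = 0.202) and -0.88 in WT leaves (standard error 0.16, adjusted p = 0.0101). RPL39B moved alike on both of its probe sets, with OsGRAS23-OE changes of -0.50 and -0.45, neither at an adjusted p under 0.05, and WT changes of -0.84 and -0.71 (adjusted p = 0.012 and 0.0148). On Os.11168.1.S1_at it measured 12.17 and 11.94 in OsGRAS23-OE drought, 12.63 and 12.49 in OsGRAS23-OE normal, 12.01 and 11.80 in WT drought and 12.64 and 12.85 in WT normal leaves.

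The other large subunit genes at this threshold in WT leaves were RPL9 at -0.54, RPL11 at -0.75, RPL27 on 2 of its 3 probe sets at -0.67 and -0.99, and RPL10A at -0.81 on a dim probe set. The bright probe set of RPL10A (Os.12334.1.S1_x_at) had -0.35. In the small subunit they were RPS10-1 at -0.81, rps20 on 2 of its 4 probe sets at -0.71 and -0.72, and rps14 on 1 of its 4 probe sets at -0.63. The gene named rps14 encodes a protein of the mitochondrial ribosome, and its locus also carries the name of a succinate dehydrogenase subunit. Probe sets of RPS3A, RPS4, RPS21, RPL18 and rpl5 had WT changes above 0, between 0.05 and 0.25, and none of them passed the test. The ubiquitin fusions RPS27AA and RPS27AB had OsGRAS23-OE changes of -0.11 and -0.29 and WT changes of -0.27 and -0.46.

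Level and change were both considered, since 24 of the 41 ribosomal protein probe sets averaged above 11 on the log2 scale. Those 24 had a median change of -0.28 in OsGRAS23-OE and -0.35 in WT leaves, beside -0.17 and -0.16 for all 990 probe sets that bright. Of the 41, 22 had their lowest value on the array of WT drought replicate 2 and 11 on that of OsGRAS23-OE drought replicate 2, while 18 had their highest on that of WT normal replicate 2. The share over all probe sets was not counted. Without WT normal replicate 1, RPL27 (Os.51456.1.S1_at, -1.26) and RPL39C (-1.04) passed 2-fold and were called.

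Between the lines, no member was called by limma, either in drought, in normal conditions or in the difference of their drought changes. Of all probe sets, 0.0157% were called higher and 0% lower in OsGRAS23-OE drought against WT drought leaves, 0.0157% higher and 0.0035% lower in OsGRAS23-OE normal against WT normal leaves, and 0% in either direction in the difference of changes. In drought leaves, the median difference of OsGRAS23-OE minus WT was 0.31 for the histones, 0.34 for the cell cycle genes and 0.07 for the ribosomal proteins, beside -0.02 for all probe sets and 0.07 for those with a mean above 5. An unadjusted p under 0.05 was reached by 0, 5 and 0 members, beside 2317 of the 27376 probe sets with a mean above 5. In normal leaves the medians were -0.16, 0.26 and -0.07, beside -0.02 for those with a mean above 5. There 0, 1 and 0 members had an unadjusted p under 0.05, beside 1751 of the 27376. The cell cycle median in normal leaves became -0.13 without OsGRAS23-OE normal replicate 1.

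The drought change in OsGRAS23-OE minus that in WT leaves had medians of 0.44 for the histones, 0.07 for the cell cycle genes and 0.15 for the ribosomal proteins, beside -0.02 for all probe sets and 0.10 for those with a mean above 5. Without OsGRAS23-OE normal replicate 1 the histone value was 0.78. For H2B.10 the difference was 0.44 (95% interval -0.51 to 1.39), for H2B.5 0.80 (-0.11 to 1.71) and for H2B.6 0.57 (-0.17 to 1.32). It was highest for CDKA-2 on Os.3428.2.S1_at, at 1.00 (0.21 to 1.78), the only member with an unadjusted p under 0.05, and lowest for MCM7 at -0.98 (-2.35 to 0.39). The adjusted limma p of CDKA-2 was 0.729, and 3839 of all 57194 probe sets had an unadjusted p under 0.05 in this comparison. For CYCD3-1 the difference was 0.22 (-0.59 to 1.03) and for CYCD4-2 0.10 (-0.98 to 1.17). Apart from that of CDKA-2, each of these intervals includes 0, and a p that misses the threshold does not show that the lines changed alike.

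**Figure D5:**
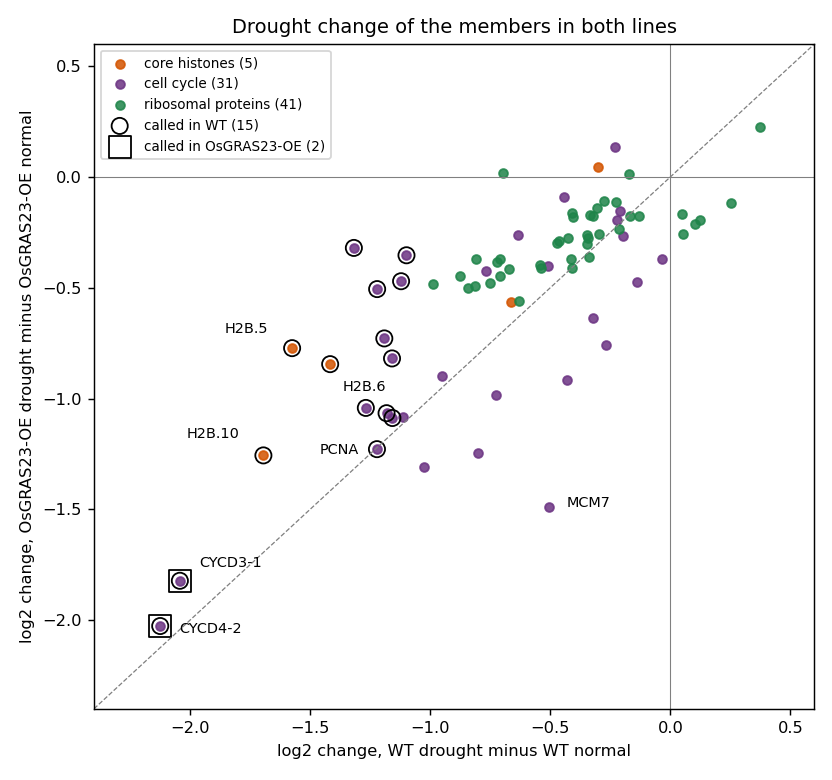
Log2 change with drought in OsGRAS23-OE leaves (vertical) against that in WT leaves (horizontal) for the 77 probe sets, coloured by class, with circles for the 15 called in WT, squares for the 2 called in OsGRAS23-OE and a dashed line of equal change. H2B genes and most cell cycle genes called in WT lie above the line, CYCD3-1 and CYCD4-2 lie near it, and MCM7 lies below it. Choosing genes by their WT call by itself favours places above the line. Of all 31 cell cycle probe sets, 20 lie above it and 11 below, with a median difference of 0.07.

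Across the 77 probe sets the changes of the lines were alike in sign for 68, with a Pearson correlation of 0.75 over probe sets, which are not independent replicates. The correlation was 0.67 over the 31 cell cycle and 0.73 over the 41 ribosomal protein probe sets, and 0.79 over all 57194.

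Other genes of the same processes were counted from separate lists. The first list held 61 probe sets for further cyclins, kinases and replication proteins, and for KRP and RBR genes, which restrain the cycle. Its medians thus mix genes of opposite function. In OsGRAS23-OE leaves 1 was called higher and 1 lower, and in WT leaves 1 higher and 5 lower, with medians of -0.26 and -0.36. The 5 are 8.2%, between the 5.51% of all probe sets and the 10.3% of those with a mean above 5, which is near the background. CDKG-1 rose by 1.02 in OsGRAS23-OE and by 1.29 in WT leaves, and CYCP4-1 fell by 1.15 in OsGRAS23-OE and by 1.10 in WT leaves. RPA32A, a subunit of the protein that coats single-stranded DNA, had -1.24 in OsGRAS23-OE leaves (adjusted p = 0.083) and fell by 1.41 in WT leaves. CYCH1-1, TOP6A3 and TOP6B also fell in WT leaves, by 1.14, 1.03 and 1.21. Of 11 probe sets for translation factors and ribosome biogenesis, limma called 0 in either line, with medians of -0.40 in OsGRAS23-OE and -0.30 in WT leaves. At an unadjusted p under 0.05 there were 3 in OsGRAS23-OE and 4 in WT leaves. Both shares lay below those of the 27376 probe sets with a mean above 5, where the counts were 8109 and 14563.

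Markers of other parts of the plant moved beside these genes. Of 9 probe sets of shoot apex genes, 0 were called in OsGRAS23-OE and 2 were called higher in WT leaves, the homeobox gene OSH6 at 1.59 and LOG, which activates cytokinin, at 1.02. This is 22.2%, beside 2.17% of all probe sets called higher and 4.21% of those with a mean above 5. A dim probe set of LOG (mean 2.91) had -0.04 in WT leaves. FON1, a receptor kinase of the meristem, was below 0, with -0.61 in OsGRAS23-OE leaves (adjusted p = 0.161) and -0.83 in WT leaves (adjusted p = 0.0257), under 2-fold. The list median relative to the genes' own means was 0.13 and 0.14 on the OsGRAS23-OE drought arrays, 0.34 and -0.01 on the OsGRAS23-OE normal arrays, 0.04 and 0.29 on the WT drought arrays and -0.25 and -0.68 on the WT normal arrays. Of 5 probe sets of root genes, 0 were called in OsGRAS23-OE and 1, SCR1 at -1.32, in WT leaves. This is 20%, beside 5.51% of all probe sets called lower and 10.3% of those with a mean above 5, and SCR1 was dim (mean 4.02). The silicon transporter gene Lsi1 measured 9.43 and 9.95 in OsGRAS23-OE drought leaves and 9.27 and 11.89 in OsGRAS23-OE normal leaves, which overlapped. In WT leaves it measured 9.20 and 9.28 under drought and 10.75 and 11.80 under normal conditions. Lsi1 was not called in either line (limma adjusted p = 0.0727 in WT leaves). The root list stood at -0.19 and -0.49 on the OsGRAS23-OE drought arrays, -0.61 and 0.20 on the OsGRAS23-OE normal arrays, -0.58 and -0.92 on the WT drought arrays and 0.16 and 1.09 on the WT normal arrays. The array of WT normal replicate 2, on which 4 of 5 histone and 18 of 41 ribosomal protein probe sets were highest, also had the highest root median. NAS1 and SCR1 were highest on that same array, while the other root genes were not. Lsi1 was highest on OsGRAS23-OE normal replicate 2, NAS2 on OsGRAS23-OE drought replicate 1 and SHR1 on OsGRAS23-OE normal replicate 1. The array of OsGRAS23-OE normal replicate 1, on which 20 of 31 cell cycle probe sets were highest, had the highest shoot apex median. The meristem gene OSH1 measured 7.12 and 6.88 there on its 2 probe sets, and 4.15 and 3.07 on OsGRAS23-OE normal replicate 2. OSH71 was also highest on OsGRAS23-OE normal replicate 1 (7.68). Other genes of the list peaked elsewhere, FON1 on WT normal replicate 2 (8.27) and OSH6 on WT drought replicate 2 (5.94). The brighter probe set of LOG was highest on WT drought replicate 2 (11.21) and that of OSH43 on WT drought replicate 1 (5.82). The 10 leaf marker probe sets had medians of -0.45 in OsGRAS23-OE and -0.54 in WT leaves, and limma called 0 of them, with 4 in each line at an unadjusted p under 0.05. Of the 27376 probe sets with a mean above 5, 8109 in OsGRAS23-OE and 14563 in WT leaves had an unadjusted p that low. The part of tissue makeup in the changes of histone, cell cycle and ribosomal protein genes was not tested.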

How the data were processed

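Total RNA (6 µg per labelling) of rice leaves was hybridised to Affymetrix rice arrays. The authors deposited log2 expression values per probe set, made with RMA (the submitters' processing notes name Partek 6.5); its settings were not stated. These values were used as deposited. RMA sets every array on a shared scale, so a change common to all transcripts would not be seen. Array controls were left out, and limma 3.58.1 (R 4.3.3) was fitted to 8 arrays and 57194 probe sets, with 4 residual and 4.85 prior degrees of freedom, for 5 comparisons: drought against normal in each line, the lines under each condition, and the difference of the drought changes. P-values were adjusted by Benjamini-Hochberg over all probe sets, and the procedure was tested on simulated data. Samples were grouped by their labels.

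Gene names came from the platform table, which gave 1 gene to 22436 probe sets, several to 95 and none to the others, with symbols updated through the RefSeq table of assembly ASM3414082v1. Probe sets of a gene were kept apart. Every probe set matching the rule was described, and named genes were those called in any comparison, those at the ends of each class, those with probe sets that disagree and those needed to describe a role. H2B.10 was always named. Genes of the other lists were named where called, while OsrbcS, Lsi1, NAS1, NAS2, SHR1, FON1, OSH1, OSH43 and OSH71 were chosen after their values were seen. The members, lists, tests and alternatives were chosen with earlier results of these data known. Results were recomputed with quantile normalization or median centring, over the arrays of 1 comparison, over probe sets above a mean of 5, with a trended and robust variance, at other thresholds, with replicate number as a block, without each array, without probe sets of ambiguous match, and with 1 probe set per gene. Promoter sequences were not used here, so a planned motif search of promoters was not run. Figures were made with Python 3.11.15 and matplotlib 3.10.9.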

Additional observations from a re-analysis of the deposited data

How the results depend on the processing

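No alternative turned the direction of a called change. Of 6318 recomputed member values, 6235 kept their side of the threshold, 52 lost a call and 31 gained one. At the thresholds of the report limma called 1392 of all probe sets in OsGRAS23-OE leaves, 4392 in WT leaves and 11 in OsGRAS23-OE normal against WT normal leaves. Without a fold threshold, ribosomal proteins in WT leaves gave 12 calls and all probe sets 10532 (3676 higher, 6856 lower). At an adjusted p under 0.01 limma called 1 cell cycle probe set in OsGRAS23-OE leaves and 4 in WT leaves, and over all probe sets 444 (348 higher, 96 lower) and 2537 (730 higher, 1807 lower). With median centring 1 ribosomal protein probe set, RPL27 at -1.07, was called in WT leaves, and MCM2 at -1.03 (adjusted p = 0.0485). H2B.10 was called in OsGRAS23-OE leaves, giving 1 histone, when dim probe sets (mean of 5 or less) were left out and with a trended and robust spread. CYCD4-1 was called there when dim probe sets were left out (adjusted p = 0.0447) and when only the groups compared were fitted (adjusted p = 0.0432). In WT leaves quantile normalization kept 13 of the 15 member calls and lost those of CYCB2-2 and PCNA. Fitting only the WT groups also kept 13, and lost those of CYCB2-2 and of CDKA-2 on Os.51694.1.S1_at. In OsGRAS23-OE normal against WT normal leaves all calls were 21 with the trended and robust spread and 7 when probe sets of ambiguous match were left out.

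Leaving out 1 array gave, in OsGRAS23-OE leaves, 0 to 1 histone calls, 0 to 4 cell cycle calls, 317 to 1469 calls over all probe sets and a histone median of -1.12 to -0.43. In WT leaves it gave 0 to 3 histone, 2 to 15 cell cycle and 0 to 2 ribosomal protein calls, 1930 to 7223 over all probe sets and a cell cycle median of -1.27 to -0.53. In OsGRAS23-OE normal against WT normal leaves it gave 7 to 22 calls over all probe sets and a cell cycle median of -0.13 to 0.56. The histone median of the difference between lines was 0.12 to 0.78. Where a group was left with 1 array, that array was assumed to vary like the other groups.

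Deviations of same-numbered arrays correlated at -0.17 to 0.10, so the numbers do not pair the samples. With the replicate number as a block, OsGRAS23-OE leaves gave 0 histone, 2 cell cycle and 0 ribosomal protein calls and WT leaves 3, 11 and 0, and CYCB2-2 in WT leaves was the call lost. Counting 1 probe set per gene, added after seeing the data, gave 10 cell cycle calls in WT leaves. Detection calls were not used here, so whether the 10 members with a mean log2 value of 5 or less lay above background was not tested.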
